A study of Mus musculus with 2 samples.

Results

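Levels are given here for 8 genes of the CC chemokine family, Ccl2, Ccl7, Ccl11, Ccl8, Ccl5, Ccl6, Ccl9 and Ccl19, out of 33696 genes counted in cells of the mouse tibialis anterior (TA) muscle. The 8 genes were taken by name for how they were spread over cell types, stromal states, libraries and single barcodes in these same counts, so every level and ratio below is a description with no test. The study asks about IGF-I as an autocrine signal of fibro-adipogenic progenitors (FAPs), the mesenchymal cells resident in muscle. One library is labelled WT and 1 is labelled KO, and in each 10 TA muscles of 5 male mice were pooled. The sample labels name the cells FAPs, but the only sort described removed dead cells with propidium iodide, after red cells were lysed, and other cell types remained. The gene altered in the KO mice, the cells it was altered in and the age of the mice are not given in the sources used here, and the abbreviation ND in the sample names was given no meaning. With 1 library per group, genotype and library cannot be told apart.

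CC chemokines are small secreted proteins that bind G protein-coupled receptors on leukocytes and draw them along a gradient. Inflammatory members such as CCL2 are induced by cytokine and injury signals through NF-kB, whereas homeostatic members such as CCL19 position lymphocytes and dendritic cells. In muscle, the inflammatory members bring in the monocytes and macrophages that clear damaged fibres.

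Of unique molecular identifiers (UMIs, counted transcript molecules), 11360 barcodes labelled WT carried a median of 2688.5 and 19531 labelled KO a median of 4010. After filters, 9789 and 17077 barcodes were kept, and 61 barcode sequences occurred in both libraries. Each kept barcode was put in a class by the share of a marker list it expressed, with no chemokine among the markers, and a class so cut is a range and not a sharp type. Between 592 (WT) and 746 (KO) barcodes lay near the edge of their gate, and 833 and 3437 met no gate. Of the last, 2360 came from a cluster of 2864 barcodes found only in the KO library, whose median depth was 1348 UMIs. In that cluster Ccl2 was at 293 CPM (UMIs of the gene per 1000000 UMIs), Ccl7 at 142, Ccl11 at 457 and Ccl6 at 105. The other barcodes of the same library held Ccl2 at 155 CPM, Ccl7 at 75.7, Ccl11 at 309 and Ccl6 at 69.8. These chemokines of different cell types thus lay above the library's level together in this cluster. Ccl5 (16.9 against 12.9 CPM) and Ccl8 (2.70 against 1.97) did so too. Ccl9 (22.3 against 22.9 CPM) did not, and Ccl19 was lower (3.93 against 6.97). Igf1, the gene the series title points to, was at 374 CPM in WT-labelled FAP-like barcodes and 399 CPM in KO-labelled ones. In macrophage-like barcodes it was at 122 and 26.5 CPM, from 114 and 22 UMIs, and in tenocyte-like barcodes at 231 and 78.0 CPM. The part of the gene that 3' tags report may lie outside a deleted part, so these levels check no label.

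Over all kept barcodes Ccl11 had the most UMIs of the 8 genes, 15938 in the library labelled WT and 28233 in that labelled KO. Ccl2 had 2147 and 14426 UMIs, Ccl7 had 1973 and 7030, and Ccl6 had 1887 and 6373. Ccl5 had 2127 and 1166 UMIs, Ccl9 had 752 and 2045, Ccl19 had 479 and 610, and Ccl8 had 209 and 179. The genes fell into 4 patterns by the class that held them: Ccl2 and Ccl7 in FAP-like and macrophage-like barcodes, Ccl11 in FAP-like and mural barcodes, Ccl6, Ccl9 and Ccl8 in myeloid classes, and Ccl5 in lymphoid classes. Ccl19 followed none of these and was held by myogenic-like and smooth muscle-like barcodes. Levels are sums of UMIs over a class as CPM of that class, and their intervals, like those of ratios and shares, cover 95% of counting error alone.

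**Figure D1:**
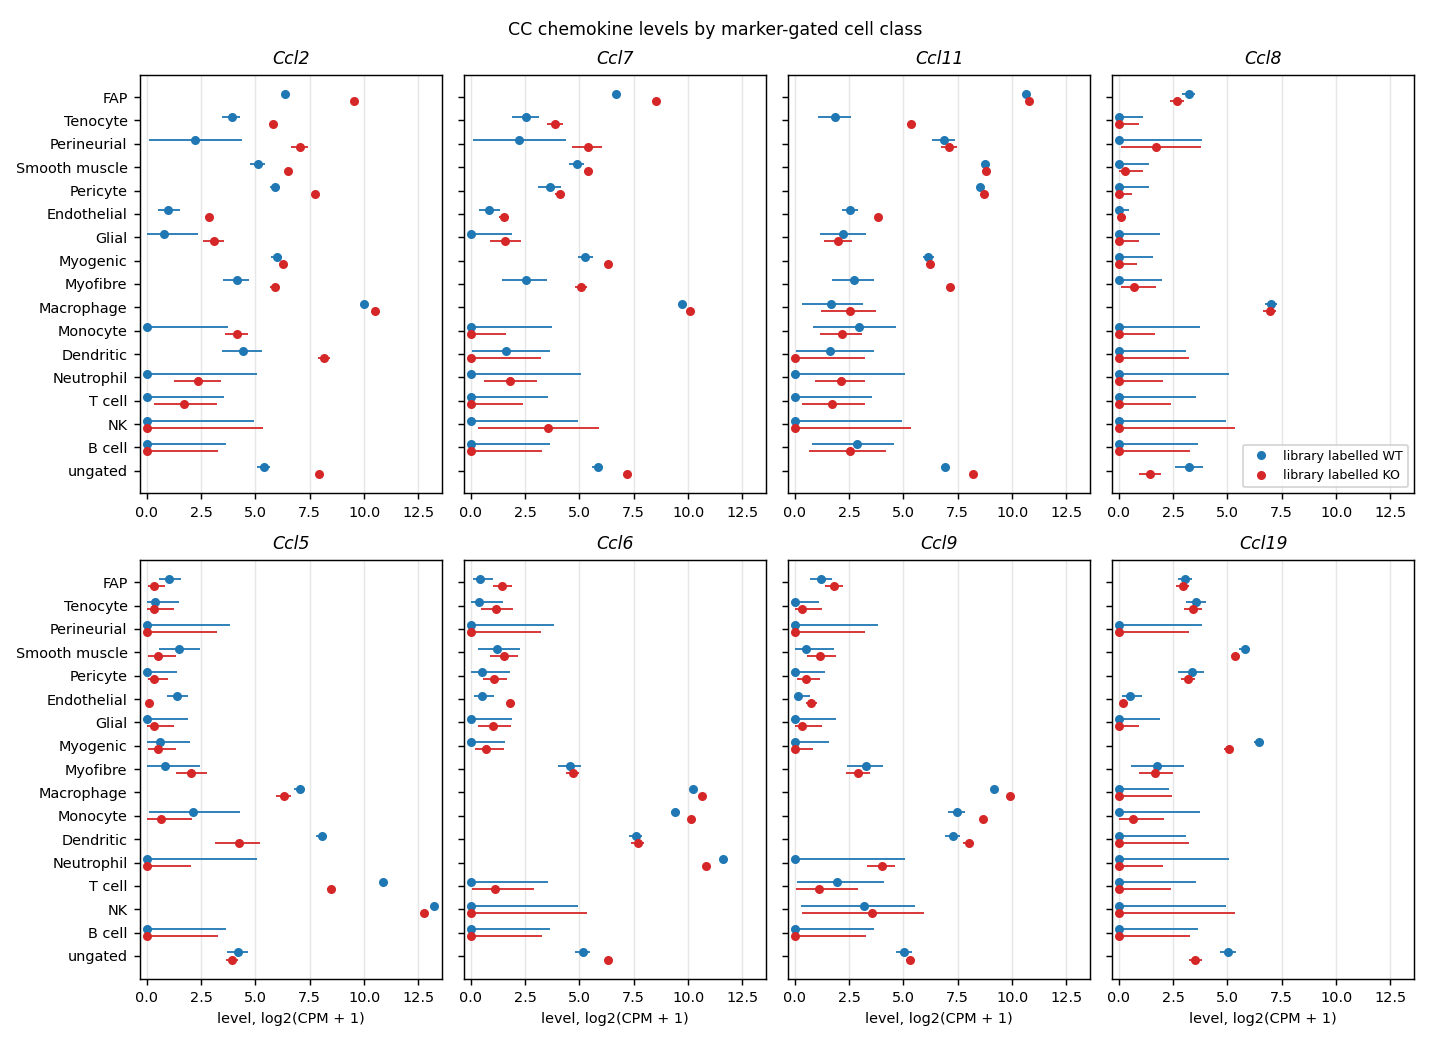
Level of each chemokine, log2(CPM + 1), in 16 marker-gated classes and in ungated barcodes, with exact Poisson intervals, for the library labelled WT (blue) and the library labelled KO (red). Ccl11 is highest in the FAP class in both libraries, Ccl5 in the NK and T cell classes, Ccl6 in the neutrophil class, and Ccl2 and Ccl7 are the genes whose FAP points lie furthest apart.

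Ccl2 (ENSMUSG00000035385), the ligand of Ccr2 that draws monocytes, was held by FAP-like barcodes above all in the library labelled KO. In 1522 FAP-like barcodes of the library labelled WT it had 701 UMIs, at 81.3 CPM (75.4 to 87.6), and in 1008 of the library labelled KO it had 8060, at 739 CPM (723 to 755). The log2 ratio of KO over WT came to 3.17 (3.07 to 3.30), and FAP-like barcodes held 32.7% of all Ccl2 UMIs in the library labelled WT and 55.9% in that labelled KO. Among 7164 genes past the level floor in FAP-like barcodes (20 CPM in 1 library and 100 UMIs over both), 6.25% were at least 2-fold apart, 3.78% higher and 2.47% lower in the library labelled KO. Of the 8 chemokines, 3 passed that floor, and 2 of the 3, Ccl2 and Ccl7, were at least 2-fold higher. Their median log2 ratio over the 3 was 1.85, beside 0.03 over all genes tested. The genes were chosen with these ratios known, so the count is no support for a difference.

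A UMI of Ccl2 was found in 92 FAP-like barcodes of the library labelled WT (6.04%) and in 265 of the library labelled KO (26.3%), at median depths of 5398.5 and 10301.5 UMIs. Thinned to 2000 UMIs each, 60 of 1392 barcodes (4.31%) and 169 of 941 (18.0%) kept a Ccl2 UMI. Endothelial-like barcodes, which held little Ccl2, gave 0.152% and 0.656% at the same thinned depth, from unthinned medians of 2334 and 4460 UMIs, and T cell-like barcodes gave 0 barcodes with a UMI in each library (upper bounds of 4.45% and 3.55%). The FAP share lay above the endothelial share in each library and above the T cell bound in that labelled KO, while in that labelled WT the T cell bound reached above the FAP share. Among the FAP-like barcodes, transcripts were unevenly held: 10 barcodes carried 63.2% of the class's Ccl2 UMIs in the library labelled WT and 37.2% in that labelled KO. One barcode of the library labelled KO held 676 Ccl2 UMIs, 2.65% of its 25501 UMIs. Without the 10 richest FAP-like barcodes of each library the levels were 30.2 and 472 CPM, with a log2 ratio of 3.92.

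Within FAP-like barcodes the ratio of Ccl2 differed between stromal states, gated by state markers that earlier results of these data named. In the Cxcl14/G0s2/Mme state, the largest, 856 and 445 barcodes had 80.8 and 645 CPM and a log2 ratio of 2.98 (2.85 to 3.14), where 3.34% of genes were at least 2-fold higher. In the Dpp4/Pi16 state, 261 and 92 barcodes had 9.96 and 431 CPM and a log2 ratio of 5.30 (4.74 to 6.23) that rests on 17 UMIs in the library labelled WT, where 1.91% of genes were 2-fold higher. FAP-like barcodes of no named state had 111 and 828 CPM, with a log2 ratio of 2.89, where 6.68% of genes were 2-fold higher. The Sbspon/Coch/Lef1 state went the other way, from 465 CPM to 137, where 2.05% of genes were 2-fold lower, but 1 barcode held 75.2% of its Ccl2 UMIs in the library labelled WT and 1 barcode held 99.0% in that labelled KO. The F2rl1/Thbs1 state, with 3 barcodes in the library labelled WT and 107 in that labelled KO, had the highest level of the library labelled KO, 1575 CPM, of which 1 barcode held 28.4%. No Ccl2 UMI was found in the 54 and 15 barcodes of the Prg4/Comp/Cilp/Gdf10 state. With equal weight for the 4 groups that had at least 30 barcodes in each library (Cxcl14/G0s2/Mme, Dpp4/Pi16, Sbspon/Coch/Lef1 and no named state) the log2 ratio was 1.61, against 3.17 as counted. The Sbspon/Coch/Lef1 level in that mean rests on single barcodes, and the F2rl1/Thbs1 and Prg4/Comp/Cilp/Gdf10 states are not in it.

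**Figure D2:**
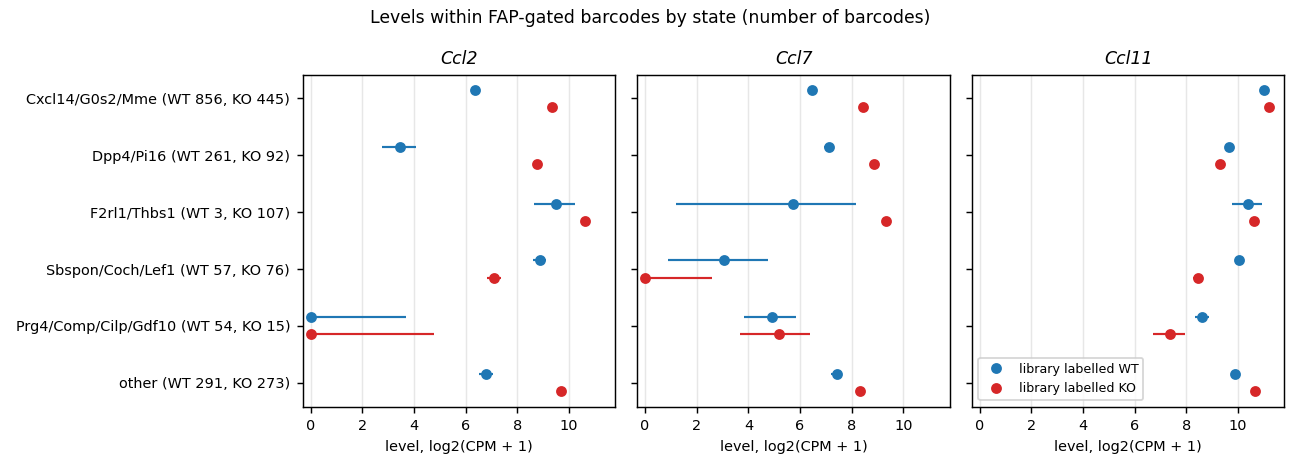
Levels of Ccl2, Ccl7 and Ccl11, log2(CPM + 1) with exact Poisson intervals, in 6 groups of FAP-like barcodes, for the library labelled WT (blue) and that labelled KO (red), with the number of barcodes in brackets. Ccl2 is higher in the library labelled KO in every state but Sbspon/Coch/Lef1 and Prg4/Comp/Cilp/Gdf10, while the Ccl11 points of the largest state lie close together.

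Outside the stroma, Ccl2 was highest in macrophage-like barcodes, at 1015 CPM (951 to 1081) in 178 barcodes of the library labelled WT and 1436 CPM (1356 to 1520) in 76 of that labelled KO. The class held 44.2% of the library's Ccl2 UMIs in the library labelled WT and 8.28% in that labelled KO. Its log2 ratio was 0.50 (0.38 to 0.63), under 2-fold, with an interval below that of FAP-like barcodes. Pericyte-like barcodes had 58.7 and 217 CPM, with a ratio of 1.86 (1.63 to 2.15), in a class where 0.725% of genes were at least 2-fold higher. Smooth muscle-like barcodes had 33.5 and 89.7 CPM, a ratio of 1.40 (1.07 to 1.79), where 0.596% of genes were 2-fold higher. Tenocyte-like barcodes had 14.0 and 55.4 CPM, from 44 and 228 UMIs, with a ratio of 1.91 (1.51 to 2.48), where 3.0% of genes were 2-fold higher. Myogenic-like barcodes, which hold the satellite cells, had 62.5 and 77.0 CPM, and the interval of their ratio, 0.30 (-0.00 to 0.61), reached 0. Among these 6 classes the order of levels in the library labelled KO was macrophage, FAP, pericyte, smooth muscle, myogenic and tenocyte, and only smooth muscle and myogenic had overlapping intervals. In the library labelled WT the order was macrophage, FAP, myogenic, pericyte, smooth muscle and tenocyte, and only the myogenic and pericyte intervals overlapped. Of the class's Ccl2 UMIs, 10 barcodes carried 71.6% and 41.7% in pericyte-like and 85.5% and 72.3% in smooth muscle-like barcodes. The same share was 75.0% and 65.8% in tenocyte-like, 80.7% and 48.2% in myogenic-like and 43.5% and 53.6% in macrophage-like barcodes. Counting intervals leave this uneven spread out, so both orders are descriptions. Dendritic-like barcodes had 286 CPM in the library labelled KO, of which 1 barcode held 79.5%. Median depth was higher in the library labelled KO in these classes, and at 2000 UMIs per barcode the FAP log2 ratio was 2.72.

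Ccl7 (ENSMUSG00000035373), a close relative of Ccl2 and likewise a ligand of Ccr2, was higher in FAP-like barcodes of the library labelled KO at a lower ratio than Ccl2. FAP-like barcodes held 880 UMIs in the library labelled WT, a level of 102 CPM (95.4 to 109), and 4035 in that labelled KO, a level of 370 CPM (359 to 382), with a log2 ratio of 1.85 (1.75 to 1.96). At 2000 UMIs per barcode, 93 of 1392 FAP-like barcodes (6.68%) and 185 of 941 (19.7%) kept a Ccl7 UMI, beside 0.203% and 0.279% of endothelial-like barcodes. In the Cxcl14/G0s2/Mme state Ccl7 was at 86.5 and 348 CPM, and the ratio was 1.74 in the Dpp4/Pi16 state and 0.92 in barcodes of no named state. Thinned FAP-like barcodes that held a Ccl2 UMI held a Ccl7 UMI in 25.0% and 53.8% of cases, against 5.86% and 12.2% of those without. Ccl7 was thus more frequent in barcodes with Ccl2 in each library. In macrophage-like barcodes 48.8% and 53.5% of Ccl2-holding barcodes had Ccl7, against 19.8% and 16.7% of the rest. Macrophage-like barcodes had Ccl7 at 843 and 1092 CPM, a ratio of 0.37 (0.23 to 0.51). In myogenic-like barcodes Ccl7 was at 37.8 and 78.3 CPM, with a ratio of 1.03 (0.68 to 1.44), above the 0.30 of Ccl2 in that class, where 3.76% of genes were 2-fold higher. With a stricter marker gate the myogenic ratio was 0.45.

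Over the classes, Ccl7 had the level profile most like that of Ccl2, with Pearson's r of 0.95 over 14 classes among 8270 genes, and Cxcl1 and Plau came after it at 0.93 and 0.89. The profiles share libraries and class depths, so the r is a description. In RefSeq's gene order on chromosome 11, Ccl2, Ccl7, Ccl11, Ccl12, Ccl8 and Ccl1 are consecutive coding genes, and Ccl5, Ccl9, Ccl6, Ccl3 and Ccl4 form a further run on the same chromosome, whereas Ccl19 lies on chromosome 4 next to Ccl21a. Neighbours did not share a pattern throughout: Ccl11, beside Ccl7, was low in macrophage-like barcodes (2 and 4 UMIs) where Ccl7 was among the highest.

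Ccl11 (ENSMUSG00000020676), eotaxin, which draws eosinophils through Ccr3, was the member most widely held by FAP-like barcodes. FAP-like barcodes held 85.5% and 68.3% of its UMIs, at 1581 CPM (1555 to 1608) in the library labelled WT and 1767 CPM (1742 to 1792) in that labelled KO. The log2 ratio was 0.16 (0.13 to 0.19), an interval that covers counting error only and does not reach 2-fold. A Ccl11 UMI was in 73.8% and 73.9% of FAP-like barcodes, and in 67.0% and 64.0% after thinning, beside 0.914% and 1.26% of endothelial-like barcodes. The richest barcode held 1.44% and 1.18% of the class's UMIs. Levels by state were highest in the Cxcl14/G0s2/Mme state, at 2051 and 2388 CPM with a UMI in 90.1% and 93.7% of its barcodes. The Dpp4/Pi16 state had 805 and 629 CPM, with a ratio of -0.35 (-0.48 to -0.23), and barcodes of no named state had 958 and 1624 CPM, a ratio of 0.76. These Ccl11 ratios had different signs and sizes under 2-fold, and the difference between states was not tested. In the Sbspon/Coch/Lef1 state Ccl11 was at 1062 and 346 CPM, but 1 barcode held 66.8% and 76.9% of those UMIs. Among Ccl2-holding FAP-like barcodes of the thinned libraries, 86.7% and 90.5% also held Ccl11.

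Pericyte-like barcodes had Ccl11 at 365 and 416 CPM and smooth muscle-like barcodes at 431 and 439 CPM, with log2 ratios of 0.19 and 0.03. The FAP marker list summed to 1317 and 1000 CPM in pericyte-like barcodes and to 1247 and 1293 CPM in smooth muscle-like ones, against 40512 and 33047 CPM in FAP-like ones. By clustering without the chemokines, the highest mural Ccl11 level was in 1 of 5 mural clusters (cluster 14), led by Csmd1, Kcnt2, Nts, Colec11 and Rgs16, with 304 barcodes in the library labelled WT and 302 in that labelled KO. Ccl11 was at 1846 and 2102 CPM in this cluster, against 48.1 and 182 CPM in the other mural clusters together. Cluster 4, the largest pericyte cluster, also held Ccl11, with 166 and 1952 UMIs at levels of 109 and 324 CPM, beside 1664 and 3485 UMIs in cluster 14. The cluster drew barcodes from both gates, 134 pericyte-like and 139 smooth muscle-like in the library labelled WT and 104 and 167 in that labelled KO. Ccl19 was also concentrated there, at 163 and 157 CPM against 0.756 and 0 CPM in the other mural clusters. A Ccl2 level of 135 and 313 CPM in cluster 14 compared with 22.4 and 141 CPM in the others together. Cluster 4 had Ccl2 at 58.0 and 252 CPM. It held 88 and 1514 Ccl2 UMIs, beside 122 and 519 in cluster 14, so more lay in cluster 4 in the library labelled KO. Cluster 14 was picked after its levels were seen, and they are a description.

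**Figure D3:**
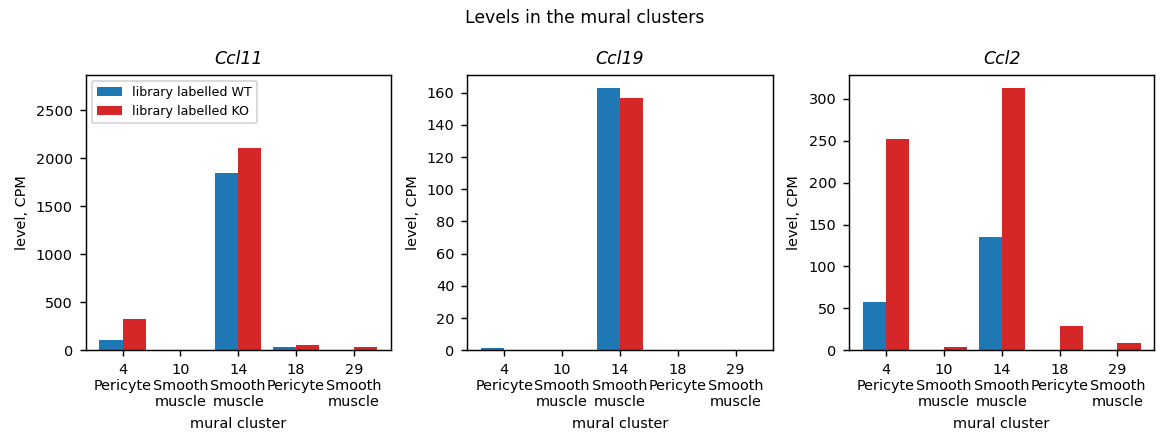
Levels in CPM (bars from 0) of Ccl11, Ccl19 and Ccl2 in the 5 mural clusters, numbered as clustered and labelled by the mural list with the highest share, for the library labelled WT (blue) and that labelled KO (red). Cluster 14 has the tallest bars for Ccl11 and Ccl19 in both libraries, and Ccl11 and Ccl2 are also seen in cluster 4.

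In tenocyte-like barcodes Ccl11 had 8 and 166 UMIs, at 2.55 and 40.4 CPM, and 1 barcode held 45.8% of the 166. By clusters instead of gates the tenocyte levels were 6.10 and 5.20 CPM and the ratio was -0.19, the opposite sign to the gated 3.54. Myofibre-like barcodes had 5.55 and 141 CPM of Ccl11, where 7.49% of genes were 2-fold higher, and 64.1 CPM in the library labelled KO without the cluster found only there. Ccl2 in the same class was at 16.7 and 58.9 CPM, and at 7.77 CPM in the library labelled KO without that cluster. One barcode held 15 of the 21 Ccl2 UMIs of the class in the library labelled WT, so no direction is read from these levels. Perineurial-like barcodes had 1 and 58 Ccl2 UMIs in 76 and 72 barcodes, and 1 barcode held 60.3% of the 58.

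**Figure D4:**
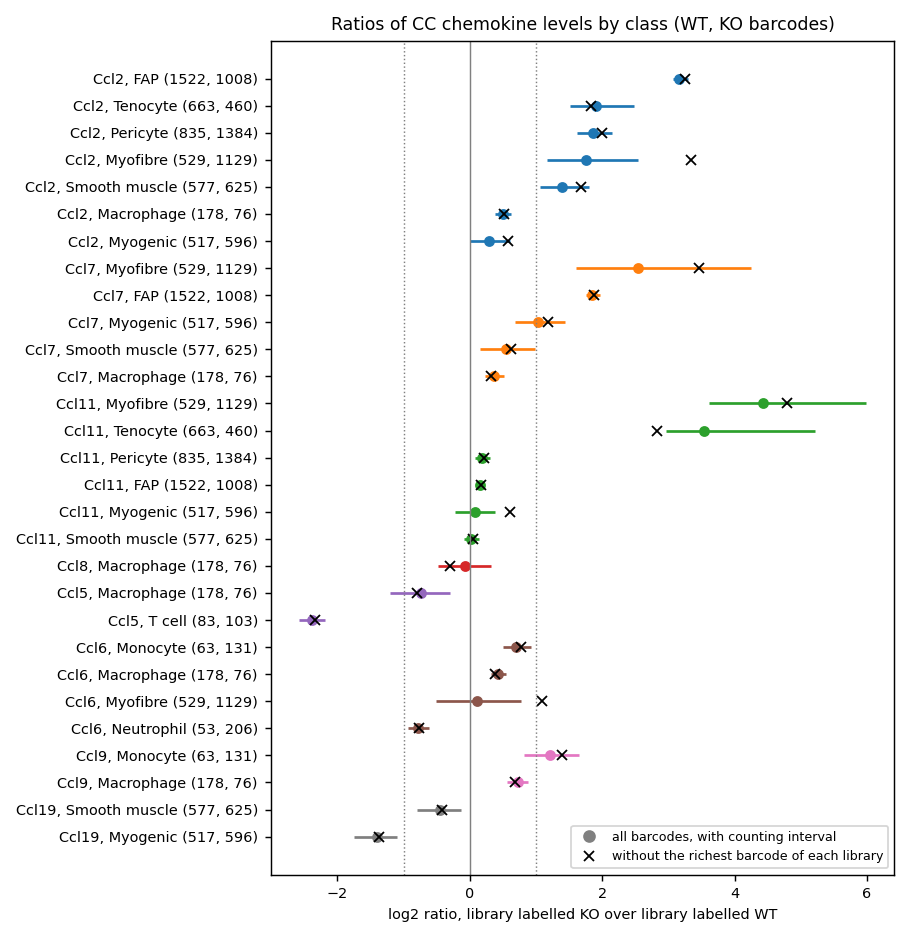
Log2 ratio of each chemokine, library labelled KO over library labelled WT, in the classes where it passed the level floor with at least 50 barcodes in each library, with counting intervals (bars), and the ratio without the richest barcode of each library (crosses). Dotted lines mark 2-fold. Ccl2 lies above 2-fold in the FAP, pericyte, tenocyte, smooth muscle and myofibre classes, and Ccl5 lies below it in the T cell class.

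Ccl6 (ENSMUSG00000018927), a chemokine found in rodents and made by myeloid cells, was the most widely held myeloid member. Among classes with at least 50 barcodes in each library, neutrophil-like barcodes had the highest level, with a ratio of -0.78 (-0.94 to -0.61). It was 3139 CPM (2823 to 3481) in 53 barcodes of the library labelled WT and 1832 CPM (1756 to 1910) in 206 of that labelled KO. The 1 mast-like barcode of the library labelled WT had 4367 CPM, from 12 UMIs. Macrophage-like barcodes had 1184 and 1598 CPM, a ratio of 0.43, and monocyte-like barcodes had 678 and 1106 CPM, a ratio of 0.71. The floor of 50 barcodes per library for these classes was set after the counts were seen. The order of the 3 classes, neutrophil over macrophage over monocyte, was the same in both libraries, and the intervals of neighbours did not overlap. By clusters instead of gates, the library labelled KO had 960 CPM in macrophage-like and 1061 CPM in monocyte-like barcodes, the opposite order. Of the 8 chemokines, 6 passed the floor in macrophage-like barcodes and 0 were 2-fold apart, where 2.22% of genes were. FAP-like barcodes had 3 and 19 Ccl6 UMIs, 0.348 and 1.74 CPM.

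Ccl9 (ENSMUSG00000019122), a related ligand of Ccr1, was at 570 and 942 CPM in macrophage-like barcodes, with a ratio of 0.72 (0.56 to 0.89). Monocyte-like barcodes had 176 and 410 CPM, a ratio of 1.21 (0.81 to 1.65), where 8.16% of genes were 2-fold higher. The classes differed in depth, with medians of 4282 and 14015 UMIs in monocyte-like barcodes. Whether the mix of cells within the monocyte class also differed was not tested. Thinned, 11 of 61 and 58 of 130 monocyte-like barcodes held Ccl9. Unlike Ccl6, Ccl9 was almost absent from neutrophil-like barcodes, with 0 UMIs in the library labelled WT (a count that allows 26.2 CPM) and 18 in that labelled KO. Macrophage-like barcodes held 70.9% and 38.3% of all Ccl9 UMIs. In thinned macrophage-like barcodes with Ccl6, 59.8% and 70.6% held Ccl9, against 37.7% and 36.4% of those without.

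Ccl6 and Ccl9 are neighbours in the genome that were both held by macrophage-like and monocyte-like barcodes, so the 250 bases before each RefSeq start are shown (GRCm38.p6, minus strand, 5' to 3'). Capitals mark CACTTCC, the reverse complement of GGAAGTG, whose GGAA is the core of sites for ETS-family factors, and it was picked after the sequences were seen. The window of Ccl6 is chr11:83593088-83593337 and that of Ccl9 is chr11:83578637-83578886.
Ccl6: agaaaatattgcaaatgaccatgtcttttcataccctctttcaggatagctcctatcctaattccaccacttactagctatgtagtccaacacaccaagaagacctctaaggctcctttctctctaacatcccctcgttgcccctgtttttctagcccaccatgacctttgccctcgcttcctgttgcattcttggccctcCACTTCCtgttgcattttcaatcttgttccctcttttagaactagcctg
Ccl9: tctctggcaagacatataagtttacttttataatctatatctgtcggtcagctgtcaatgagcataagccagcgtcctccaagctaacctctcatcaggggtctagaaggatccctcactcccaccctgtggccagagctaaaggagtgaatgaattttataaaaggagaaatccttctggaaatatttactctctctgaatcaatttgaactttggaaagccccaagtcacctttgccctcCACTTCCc
The motif begins 49 bases before the start in Ccl6 and 8 bases before it in Ccl9, within a shared stretch of 13 bases, gccctccacttcc, the longest in common. Searched on both strands, it occurs in 8.55% of 32851 promoters of the table. A match is a description of letters, and no binding was measured.

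Ccl8 (ENSMUSG00000009185), a chemokine known from resident macrophages, was the rarest of the 8. Macrophage-like barcodes held 57.4% and 56.4% of its UMIs, at 128 and 121 CPM, with a ratio of -0.08 (-0.48 to 0.31). In each library 1 barcode held 53 UMIs, 44.2% of the class in the library labelled WT and 52.5% in that labelled KO. FAP-like barcodes had 72 and 58 UMIs, at 8.35 and 5.32 CPM. The Dpp4/Pi16 state carried 37 and 25 of them, at 21.7 and 19.5 CPM, above 6.44 and 4.74 CPM in the Cxcl14/G0s2/Mme state. The counting intervals of the 2 states did not overlap, but they leave out the spread between barcodes. In the Dpp4/Pi16 state 10 barcodes held 67.6% and 92.0% of the Ccl8 UMIs, and 1 held 29.7% in the library labelled WT.

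Ccl5 (ENSMUSG00000035042), RANTES, made by cytotoxic lymphocytes, was held by NK-like and T cell-like barcodes. NK-like barcodes had 9431 CPM in 32 barcodes and 6932 CPM in 13, too few for a ratio, and held 54.8% and 55.5% of all Ccl5 UMIs. T cell-like barcodes had 642 UMIs, at 1855 CPM (1715 to 2005), in 83 barcodes of the library labelled WT and 310, at 356 CPM (318 to 398), in 103 of that labelled KO. The log2 ratio was -2.38 (-2.58 to -2.18), where 0.414% of 2416 genes were 2-fold lower, and a UMI was in 26.5% and 14.6% of barcodes. Median depth in this class was 3853 and 8149 UMIs, and the shares of barcodes given here are unthinned. Cd8a was at 86.7 and 44.8 CPM, from 30 and 39 UMIs, in 21.7% and 12.6% of barcodes. Cd4 was at similar levels, 136 and 130 CPM, but in 27.7% and 43.7% of barcodes, and Cd3e was in 81.9% and 95.1%. Nkg7, a cytotoxic granule gene, was at 220 and 146 CPM but in similar shares of barcodes, 33.7% and 33.0%. The part of the make-up of the class in the Ccl5 ratio was not tested. In this class 10 barcodes held 85.8% and 87.1% of the class's Ccl5.

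Ccl19 (ENSMUSG00000071005), which guides dendritic cells and T cells through Ccr7, lay outside the immune classes. It is reported as uncertain, because the files also count Ccl19-ps2, a near-identical copy, with 379 and 338 UMIs beside 512 and 676 of Ccl19 as deposited, and reads of the 2 genes may be split. Myogenic-like barcodes had Ccl19 at 87.2 CPM (74.4 to 102) and 32.4 CPM (27.5 to 38.0), with a log2 ratio of -1.40 (-1.75 to -1.10), where 2.56% of genes were 2-fold lower. The copy had the same direction in these barcodes, and summed with it the ratio was -1.59 (-1.87 to -1.35). A Ccl19 UMI was in 13.3% and 5.12% of thinned myogenic-like barcodes, and 10 barcodes held 28.9% and 21.1% of the class's UMIs. Smooth muscle-like barcodes had 55.0 and 40.0 CPM, a ratio of -0.45 (-0.80 to -0.13). In thinned smooth muscle-like barcodes, Ccl19 was found in 41.2% and 24.3% of those with Ccl11, and in 0.272% and 1.47% of those without.

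The 8 genes differed in how few barcodes carried them, by counts over all kept barcodes. The number of barcodes that held 50% of the UMIs was 5 and 3 for Ccl8, 15 and 8 for Ccl5, 31 and 52 for Ccl2, 29 and 59 for Ccl7 and 34 and 36 for Ccl9. It was 42 and 75 for Ccl6, 75 and 60 for Ccl19 and 221 and 181 for Ccl11. The 10 richest barcodes of Ccl2 were FAP-like in 5 of 10 cases in the library labelled WT and in 10 of 10 in that labelled KO.

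**Figure D5:**
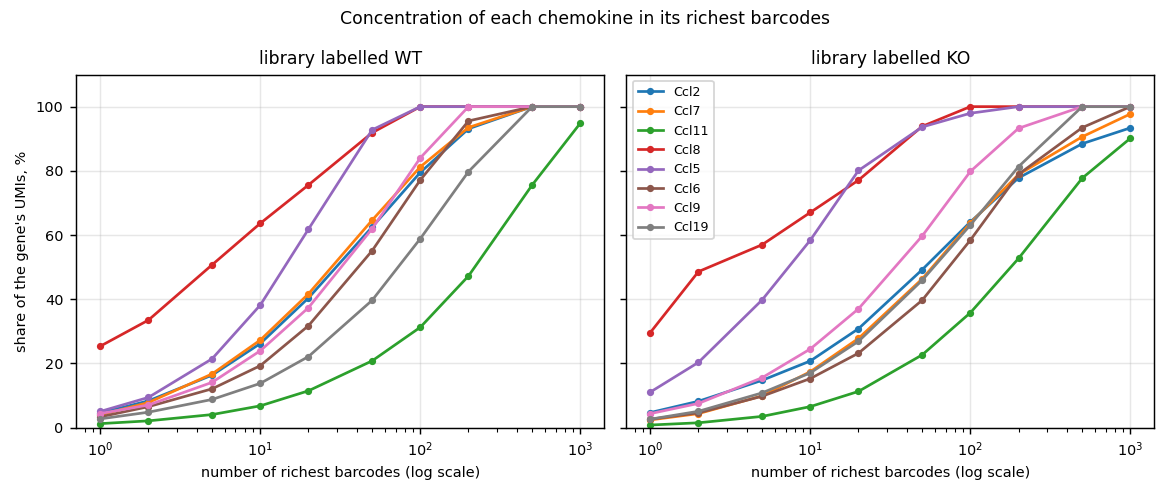
Share of each chemokine's UMIs held by its richest barcodes (horizontal axis, log scale) in each library. Ccl8 and Ccl5 reach 58% or more within 10 barcodes in the library labelled KO, while Ccl11 stays under 7% there.

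Profiles over the classes paired Ccl11 with Rgs6, Ms4a4d and Ddr2 (r of 0.92, 0.91 and 0.91) and Ccl19 with Hhip, Bdnf and Errfi1 (0.92, 0.91 and 0.91). The nearest genes of Ccl6 were C5ar1, Fcgr3 and Nlrp3 (0.99 each), those of Ccl9 were Ms4a6d, Gm48065 and Msr1, and those of Ccl5 were Klrk1, Klrd1 and Il1rl1. Mucl1, Dcstamp and Ccl24 were nearest to Ccl8. Each r is over 14 classes and 8270 genes and describes these classes only.

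On the receiving side, 8 of 10 CC receptors reached 20 CPM in a class, over classes with at least 30 barcodes in each library. Smaller classes, among them dendritic, NK and lymphatic endothelial, were not counted. Ccr1 was highest in neutrophil-like barcodes, at 1723 and 1523 CPM, and the other receptors named here were chosen after their values were seen. Ccr2, the receptor of Ccl2 and Ccl7, was at 308 and 328 CPM in macrophage-like barcodes. In 63 and 131 monocyte-like barcodes it was at 156 and 979 CPM, a ratio of 2.64. Of 3678 genes tested in that class, 12.5% were 2-fold apart and 8.16% were 2-fold higher. The mix of cells within the monocyte class was not compared between the libraries. Ccr7, the receptor of Ccl19, was at 423 and 421 CPM in B cell-like barcodes. Of 4 atypical receptors, which bind chemokines without the usual signal, 2 reached 20 CPM in a class of at least 30 barcodes per library. These were Ccrl2 at 472 and 346 CPM in neutrophil-like barcodes and Ackr1 at 36.5 and 33.6 CPM in endothelial-like ones. FAP-like barcodes had 0 of 10 receptors past the floor.

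Genes of NF-kB activation and feedback passed the floor in FAP-like barcodes for 14 of 14 members, and 2 of 14, Icam1 and Sod2, were at least 2-fold higher, with 0 lower, in a class where 3.78% of genes were higher and 2.47% lower. Their median log2 ratio was 0.60, beside 0.03 over all genes tested. Nfkb1 was at 848 and 1286 CPM, and Nfkbia, the inhibitor that NF-kB induces, at 520 and 791 CPM, both under 2-fold. Of 14 genes of dissociation stress, 0 were 2-fold apart in FAP-like barcodes, with a median of 0.07. Fos was at 5162 and 5130 CPM there, Jun at 4761 and 4163, and Atf3 at 957 and 711. In pericyte-like barcodes the median was 0.16 for NF-kB and 0.36 for dissociation genes, and in smooth muscle-like ones 0.32 and 0.35. These medians were 0.54 and -0.36 in myogenic-like, -0.01 and 0.25 in endothelial-like and 0.10 and 0.20 in macrophage-like barcodes. The part of either list in the chemokine ratios was not tested. In myogenic-like barcodes 3 of 14 dissociation genes, Fos, Hspa1b and Dnajb1, were 2-fold lower in the library labelled KO and 1 of 14 NF-kB genes, Icam1, was 2-fold higher, where 2.56% of genes were lower and 3.76% higher. The macrophage marker list summed to 31.4 and 25.4 CPM in FAP-like barcodes, with Adgre1, C1qc and Cd163 at 0 in the library labelled WT and Folr2 at 0 in that labelled KO. That list was at 12354 and 10941 CPM in macrophage-like barcodes. Of the other lists summed in FAP-like barcodes, the endothelial list was at 74.6 and 131 CPM, the neutrophil list at 11.7 and 28.9 CPM with 6 of its 9 markers at 0 in the library labelled WT and Csf3r at 0 in that labelled KO, and the myogenic list at 56.6 and 64.8 CPM. The pericyte list was at 283 and 278 CPM and the T cell list at 6.84 and 4.22 CPM. The part of the endothelial and neutrophil transcripts in the Ccl2 and Ccl7 ratios was not tested.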

How the data were processed

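The values deposited by the authors are unnormalised UMI counts of each gene in each barcode. They come from Cell Ranger, per the file headers in version 8.0.0 (WT) and 9.0.0 (KO), while the submitters' processing notes give 9.0.0 and build mm10. The identifiers do not all match the genome annotation used here, so no gene coordinates are given. The promoter windows carry the build of RefSeq's own table (GRCm38.p6), in which 4 of the 8 members were found.

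Barcodes were kept from 500 genes upward and up to 10% mitochondrial UMIs. The highest Scrublet scores were removed as doublets at 0.4% per 1000 barcodes (516 and 1526), because the caller's own threshold did not work in the library labelled KO. A class needed at least 3 markers and 30% of its list, 10 points above the best list of another lineage, or 85% for myofibres. A stromal state needed 40% of its list. The gate thresholds were set after the data were seen. The lists of the stromal states hold genes that earlier results of these data named. UMIs were summed per class and library, as CPM of the class total, and log2 ratios used a pseudocount of 1 CPM. Intervals were exact Poisson for levels, Clopper-Pearson for shares and conditional binomial for ratios, each at 95%. Genes counted as the background had 20 CPM in 1 library and 100 UMIs over both. Clusters (Leiden, resolution 1, 30 components, 20 neighbours) left the members out of the 2000 variable genes. Python 3.11.15 and scanpy 1.11.5 were used. The ratio procedure was tested on simulated Poisson sums from the FAP-like profile. These sums hold no spread between barcodes, so the test does not cover transcripts held by few barcodes.

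The members and lists were chosen with earlier results of these data known. All 8 members are named. Of the pathway lists (other CC ligands, CC receptors, atypical receptors, NF-kB activation and feedback genes, and dissociation stress genes) the rule names up to 12 genes by highest class level, and others named were chosen after their values were seen. For each member the 3 genes with the most similar class profile are named, over classes with at least 30 barcodes in each library. Counts of list genes that reached 20 CPM in a class, and their highest class, were taken over the same classes. Ratios were planned for classes with at least 100 barcodes per library, and the floor of 50 was set after the counts were seen. Each group is 1 library, so no test between genotypes was run and no leave-one-out fit exists. Alternatives to the filters, doublets, gate, scaling, pseudocount, depth and states are given in the closing section. One receptor of the lists is not reported here.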

Additional observations from a re-analysis of the deposited data

Results flagged for a closer look

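Ccl2 had ratios of opposite sign in the stromal states of FAP-like barcodes. The log2 ratio of the library labelled KO over that labelled WT was 2.98 in the Cxcl14/G0s2/Mme state, 5.30 in the Dpp4/Pi16 state and 2.89 in FAP-like barcodes of no named state, against -1.75 in the Sbspon/Coch/Lef1 state. With 1 library per group the difference was not tested. One barcode held 97 of 129 Ccl2 UMIs of the Sbspon/Coch/Lef1 state in the library labelled WT and 1 held 100 of 101 in that labelled KO. Only 4 of 57 and 2 of 76 barcodes of this state held a Ccl2 UMI. Without the richest barcode of each library its ratio was -5.65, but so few barcodes remain that no direction is read from it.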

How the results depend on the processing

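Of 23 log2 ratios under 241 alternatives, 202 stayed within the counting interval, and 39 moved past it. Of these, 4 changed sign: Ccl11 in tenocyte-like barcodes from 3.54 to -0.19 by Leiden clusters, and 3 ratios close to 0, pericyte Ccl11 from 0.19 to -0.12 thinned, smooth muscle Ccl11 from 0.03 to -0.09 with the strict cell filter and macrophage Ccl8 from -0.08 to 0.40 thinned. The FAP log2 ratio of Ccl2 moved from 3.17 to 3.04 with a pseudocount of 10 CPM, 2.72 thinned to 2000 UMIs, 2.91 without the F2rl1/Thbs1 state, 1.61 with the 4 larger state groups weighted equally and 3.92 without the 10 richest barcodes of each library, the last added after the data were seen. That of Ccl7 moved from 1.85 to 1.67, 1.49 and 2.08 under the last 3 of these. That of Ccl11 moved from 0.16 to 0.22 with TMM factors, 0.089 thinned and 0.032 with states weighted equally. The signs of these 3 FAP ratios were kept under each alternative run. Genes 2-fold apart in FAP-like barcodes numbered 448, 1149 with no floor on level and 114 with a floor of 100 CPM. Neutrophil Ccl6 moved from -0.78 to -0.40 with TMM factors. Pericyte Ccl11 was 1.60 by clusters, T cell Ccl5 was -1.94 with doublets kept, and the T cell share of Ccl5 was 86.9% and 82.1% by clusters, which merged NK-like barcodes with them. The cause of the other shifts was not tested. No paired analysis was possible because each group has 1 library, and for the same reason no library could be left out. In classes under 100 barcodes, and where 10 barcodes hold most UMIs, counting intervals understate the error.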

Other observations

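Of 12 other CC ligands, 6 reached 20 CPM in a class with at least 30 barcodes in each library. In macrophage-like barcodes 4 of the 12 passed the level floor. Ccl4 was at 2092 and 2896 CPM in macrophage-like barcodes, a log2 ratio of 0.47. In T cell-like barcodes its levels were 127 and 26.4 CPM, a ratio of -2.22. Mast-like barcodes, only 1 and 2, held Ccl4 at 41485 and 23581 CPM and Ccl3 at 10189 and 6102 CPM. Those levels lay above the macrophage ones but rest on too few barcodes to describe a class. Ccl3 was at 537 and 978 CPM in macrophage-like barcodes, Ccl12 at 534 and 358, and Ccl24 at 310 and 149, the last at a ratio of -1.05, and these 3 genes were chosen after their values were seen. Ccl12 lies between Ccl11 and Ccl8 in gene order, and FAP-like barcodes had 0 and 2 of its UMIs.

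Ccl21a, a ligand of Ccr7 like Ccl19, was held by lymphatic endothelial-like barcodes, with 89.2% and 91.7% of its UMIs in 7 and 8 barcodes. Ccl19 is its neighbour on chromosome 4 but had its highest levels in myogenic-like and mural barcodes. Monocyte-like barcodes had Ccr1 at 63.1 and 585 CPM, in 63 and 131 barcodes of different depth whose mix of cells was not compared. In NK-like barcodes Nkg7 was at 1537 and 1404 CPM, close in level while Ccl5 stood at 9431 and 6932 CPM.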
